A study of Mus musculus with 6 samples.

Results

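Estrogen receptor alpha (ERα) sites called after ICI (fulvestrant, ICI182780) were set against those called after tamoxifen in the uterus of mice whose receptor is mutated in its activation function 2 (AF-2). The sites described are all peaks in the 2 AF-2 mutant lists made after ligand, 45837 with ICI and 36538 with tamoxifen, or 82375 of the 154923 peaks in the 6 lists of the series. Peaks of the 2 lists that overlapped by 1 bp or more were classed as shared, and the others as ICI only or tamoxifen only. All positions are in the mouse build mm9 and count from 1.

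Binding was measured by chromatin immunoprecipitation and sequencing (ChIP-seq) with an antibody to ERα. Ovariectomized C57BL/6J females of 12 weeks, either AF-2 mutants (labelled AF2ERKI) or wild-type littermates, received by intraperitoneal injection 2 mg/kg ICI in DMSO, 2 mg/kg tamoxifen in DMSO, or 50 µl of DMSO alone as vehicle. Uteri were taken 1 h later. All groups thus shared the loss of the ovaries and the DMSO, and all 6 sample titles carry an unexplained code, E1h. Each library came from a pool of 6 uteri and each group was 1 library, so no value has a replicate spread and no p-value is given. Ranges in brackets after a share or ratio are 95% intervals by the exact Clopper-Pearson method and reflect counting error alone. A whole uterus holds epithelium, stroma and muscle, and a peak list carries no marker levels, so the makeup of the tissue was not tested. The labels name no residue for the mutation.

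ERα is a nuclear receptor that binds DNA as a dimer, at estrogen response elements or through other bound factors, and most of its sites lie in enhancers away from promoters. It activates genes through AF-1, in its N-terminal part, and through AF-2, a groove on the ligand-binding domain that takes up coactivators when an agonist is bound. Fulvestrant is an estradiol derivative with a long side chain that blocks the receptor and speeds its loss. Tamoxifen is a nonsteroidal triphenylethylene with a basic side chain, and in the uterus it acts as a partial agonist through AF-1. In mice with a mutant AF-2, compounds known as antagonists can activate ERα through AF-1. The question was whether ligands of such different structure, at the same dose and time, place the mutant receptor at different sites.

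The ligands shared most called sites, and ICI had more sites of its own than tamoxifen. Of the ICI peaks, 31270 were shared, or 68.2% (67.8 to 68.6), and 14567 were ICI only. Of the tamoxifen peaks, 31271 were shared, or 85.6% (85.2 to 85.9), and 5267 were tamoxifen only. The ratio of ICI-only to tamoxifen-only peaks was 2.77 (2.68 to 2.85), and the ratio of the list lengths was 1.25 (1.24 to 1.27). Taking nearly equal numbers of shared peaks from both lists moves the ratio of the rest away from 1 by arithmetic alone. These counts follow from the rule and are a description. The lists carry no peak height or score and the depth is unknown, so a peak missing from a list may have stood below the authors' threshold.

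Shared sites coincided closely. Because all peaks were 200 bp wide, the overlap rule itself keeps the midpoints of shared peaks less than 200 bp apart. Within this limit, the midpoints of overlapping ICI and tamoxifen peaks lay a median of 12 bp apart (quartiles 5 and 24 bp). They lay within 50 bp of each other for 93.9% of shared ICI peaks (93.6 to 94.2), and at the same base for 802 of them. In the wild type, where the lists were compared in the same way, the median was 17 bp and 87.9% (87.4 to 88.3) were within 50 bp. Almost every pair was one to one, with 1 ICI peak over 2 tamoxifen peaks. Few peaks stood at the edge of the rule. Only 157 shared ICI peaks overlapped by 50 bp or less. Just outside it, 112 ICI-only and 111 tamoxifen-only peaks had a gap of under 50 bp to a peak of the other ligand. Within 1 kb of a peak of the other ligand, shared or not, lay 12.6% of ICI-only peaks (12.1 to 13.2) and 18.1% of tamoxifen-only peaks (17.1 to 19.2). The ICI list, against which tamoxifen-only peaks were measured, was the longer one.

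The remaining 4 lists give a readout that the classes did not use. Shared sites had the highest share in each of them. Of shared sites, 53.3% (52.7 to 53.8) were called with ICI in the wild type and 72.6% (72.2 to 73.1) with tamoxifen in the wild type. Ligand-specific sites were called there less often. The wild-type ICI list held 17.96% of ICI-only sites (17.3 to 18.6) and 18.0% of tamoxifen-only sites (17.0 to 19.1), and these intervals overlap almost wholly. The wild-type tamoxifen list held 35.2% of ICI-only sites (34.4 to 35.9) and 22.7% of tamoxifen-only sites (21.5 to 23.8). Tamoxifen-only sites were thus not the more often called class in the wild-type list of their own ligand. In wild-type ICI the order of the classes depended on the overlap rule, with 16.9% of ICI-only and 15.7% of tamoxifen-only sites at an overlap of 100 bp or more. These lists differ in length, with 26482 peaks for wild-type ICI and 37327 for wild-type tamoxifen.

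**Figure D1:**
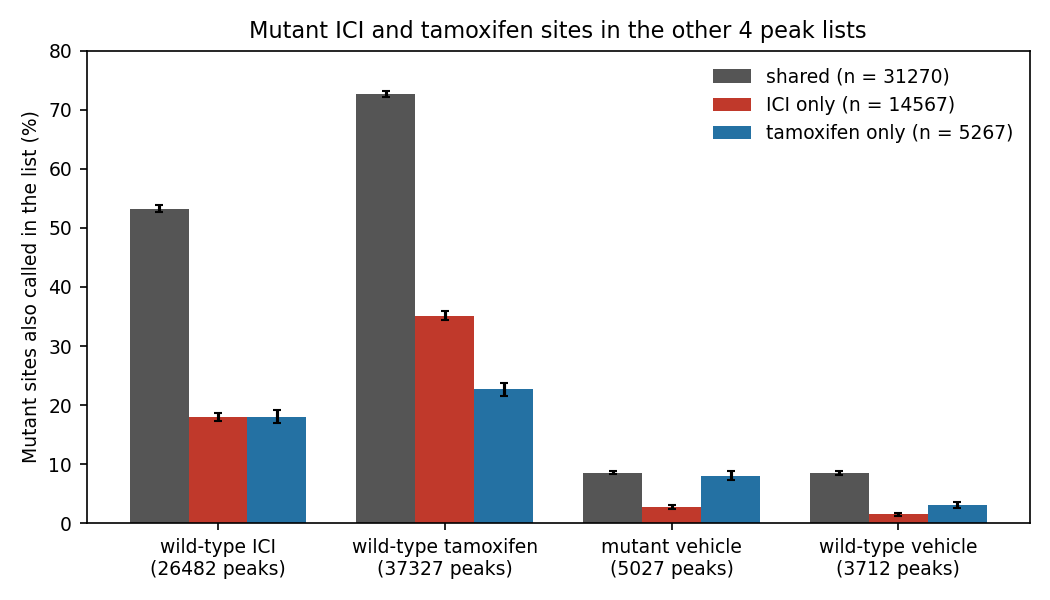
Share (%) of mutant shared, ICI-only and tamoxifen-only sites that were also called in each of the other 4 lists; bars are shares and error bars 95% exact binomial intervals. Shared sites are highest in every list, ICI-only and tamoxifen-only sites are level in wild-type ICI (17.96% and 18.0%), and tamoxifen-only sites (7.99%) stand close to shared sites (8.57%) in mutant vehicle.

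The same comparison was made with sites called in exactly 1 of the wild-type ligand lists. Of ICI-only sites, 1009 were called in the wild type with ICI alone and 3514 with tamoxifen alone. ICI alone therefore made up 22.3% of them (21.1 to 23.6). Of tamoxifen-only sites, 498 were called with ICI alone and 741 with tamoxifen alone, so that ICI alone made up 40.2% (37.4 to 43.0). For shared sites this share was 17.4% (16.7 to 18.2). Over all ligand-specific peaks of the wild type, ICI only made up 28.8% (28.3 to 29.4). Most of those ICI-only peaks, 4240 of 7378, had no mutant ligand peak, so this is not a level for mutant sites. Wild-type peaks with a mutant ligand peak numbered 3138 ICI only and 11916 tamoxifen only, a lower share of ICI only. Among the mutant classes, the share of ICI alone was highest for tamoxifen-only sites and lowest for shared sites. Both wild-type ligand lists held 48.1% of shared (47.5 to 48.6), 11.0% of ICI-only (10.5 to 11.6) and 8.58% of tamoxifen-only sites (7.84 to 9.37). Neither held 22.2% of shared (21.7 to 22.6), 57.9% of ICI-only (57.1 to 58.7) and 67.9% of tamoxifen-only sites (66.6 to 69.2).

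Sites called under vehicle set the specific classes apart. A mutant vehicle peak lay at 8.57% of shared sites (8.26 to 8.88) and at 7.99% of tamoxifen-only sites (7.27 to 8.76), but at 2.73% of ICI-only sites (2.47 to 3.003). The intervals of shared and tamoxifen-only sites overlap, and that of ICI-only sites lies below both. In numbers, 397 ICI-only and 421 tamoxifen-only sites held a mutant vehicle peak, although the first class is the larger. ICI-only sites were accordingly 48.5% (45.1 to 52.0) of the ligand-specific sites with a mutant vehicle peak, against 73.4% (72.8 to 74.1) of all ligand-specific sites. Among those in the wild-type ICI list they were 73.4% (71.9 to 74.8), and among those in the wild-type tamoxifen list 81.1% (80.1 to 82.1). The wild-type vehicle list gave the same order as the mutant one at lower shares, with 3.09% of tamoxifen-only (2.64 to 3.60) and 1.47% of ICI-only sites (1.28 to 1.68). There it stood at 8.51% of shared sites (8.20 to 8.82), well above both specific classes.

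Read from the vehicle side, 53.3% of the 5027 mutant vehicle peaks (51.9 to 54.7) lay at a site of both ligands. A further 395 had an ICI peak alone and 435 a tamoxifen peak alone, and 1517, or 30.2% (28.9 to 31.5), had neither. ICI-only sites with a mutant vehicle peak were in the wild-type tamoxifen list at 20.4% (16.5 to 24.7), below the 35.6% (34.8 to 36.4) of those without one. For tamoxifen-only sites the order was the opposite, with 31.1% (26.7 to 35.8) and 21.9% (20.8 to 23.1). Of the ICI-only sites with a mutant vehicle peak, 14.9% (11.5 to 18.7) also held a wild-type vehicle peak, as did 15.7% (12.3 to 19.5) of the tamoxifen-only ones. These intervals overlap.

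Both specific classes lay among the shared sites at nearly equal distances. The median distance to the nearest shared site was 13.65 kb for ICI-only sites (quartiles 4.21 and 37.7 kb) and 13.2 kb for tamoxifen-only sites (3.92 and 37.1 kb). Within 10 kb lay 42.4% (41.6 to 43.2) and 43.0% (41.6 to 44.3). Within 1 kb lay 9.89% (9.41 to 10.4) and 10.7% (9.83 to 11.5), and within 100 kb 91.1% (90.6 to 91.6) and 91.8% (91.0 to 92.5). The intervals overlap at all 3 distances. Shared sites lay closer to each other, with a median of 8.80 kb and 53.0% (52.4 to 53.5) within 10 kb of the next. As a level from other libraries, wild-type peaks absent from both mutant ligand lists lay a median of 17.5 kb (ICI) and 19.6 kb (tamoxifen) from a mutant shared site, with 37.0% (35.8 to 38.2) and 34.2% (33.2 to 35.3) within 10 kb. Within 1 kb lay 11.3% of these ICI peaks (10.5 to 12.1) and 6.59% of these tamoxifen peaks (6.07 to 7.15), so that at this distance the ICI ones were not below the specific classes. Mutant vehicle peaks in neither ligand list had 43.6% (41.1 to 46.2) within 10 kb, and 18.7% (16.7 to 20.7) within 1 kb.

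**Figure D2:**
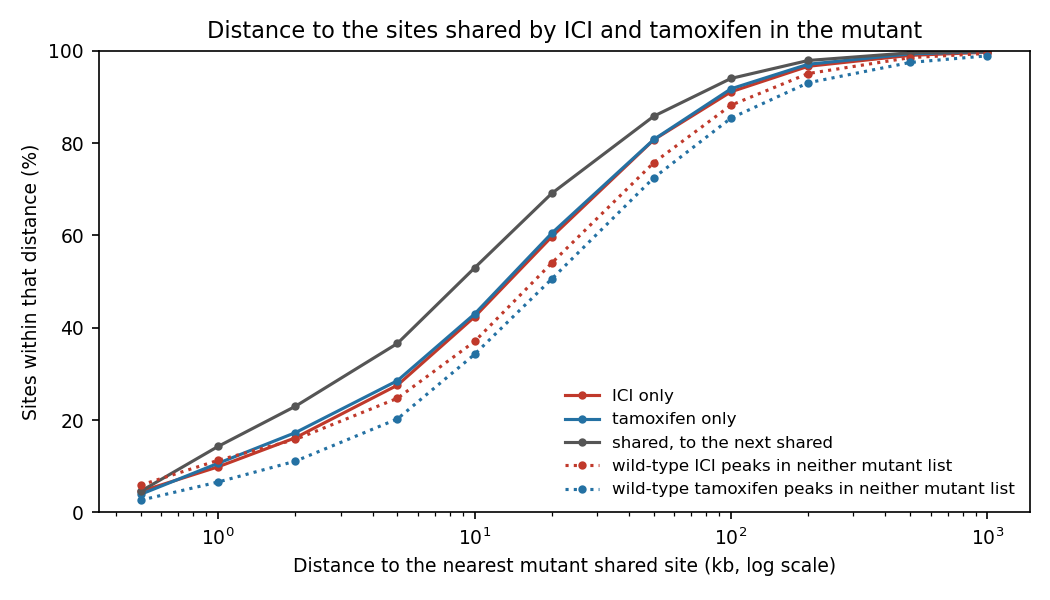
Cumulative share (%) of sites by distance (kb, log scale) to the nearest site shared by ICI and tamoxifen in the mutant, for ICI-only, tamoxifen-only and shared sites (to the next shared site) and for wild-type peaks absent from both mutant ligand lists. At 10 kb the ICI-only and tamoxifen-only curves (42.4% and 43.0%) lie below the shared sites (53.0%) and above the wild-type peaks (37.0% and 34.2%); at 1 kb the wild-type ICI peaks (11.3%) are not below them (9.89% and 10.7%).

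Whether a specific site was also called in the wild type made a small difference to its place. ICI-only sites with a wild-type ligand peak were within 10 kb of a shared site at 40.0% (38.8 to 41.3), and those without one at 44.1% (43.0 to 45.1). For tamoxifen-only sites the shares were 40.3% (37.9 to 42.7) and 44.3% (42.6 to 45.9). Sites without a wild-type ligand peak had the higher share in both classes, with intervals that lie apart for ICI only and just overlap for tamoxifen only. Specific sites of the wild type lay farther from the shared sites of that genotype, at medians of 25.8 kb for ICI only and 21.2 kb for tamoxifen only. Its 19104 shared ICI peaks are fewer than the 31270 of the mutant, so the medians of the genotypes are not on the same footing.

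Some specific sites stood far from any shared one. More than 1 Mb from a shared site lay 46 ICI-only and 11 tamoxifen-only sites, while 99.7% and 99.8% of these classes lay nearer. Of the shared sites, 43 were as far from the next shared one. A site on a sequence without any shared site was counted as more than 1 Mb away. On chromosomes 1 to 19 and X, the farthest ICI-only site was chr15:47175196-47175395, 2.64 Mb away, and the farthest tamoxifen-only site was chr3:47505186-47505385, 2.06 Mb away. Neither was called in any of the other 4 lists. Most sites of both classes, 57.9% of ICI-only and 67.9% of tamoxifen-only sites, had no wild-type ligand peak. A mutant vehicle peak lay at 2.73% and 7.99% of them.

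Along the chromosome, a site was counted as single when neither neighbour was of its class. Of ICI-only sites, 48.5% were single and 22.9% lay in runs of 3 or more. Of tamoxifen-only sites, 79.4% were single and 3.63% lay in such runs. Tamoxifen only is the smaller class, so fewer and shorter runs of it can form. The longest ICI-only runs had 9 sites and there were 3 of them. The tightest, chr8:66666715-67006257, spanned 340 kb, with 2 wild-type ICI peaks, 1 wild-type tamoxifen peak and 0 vehicle peaks of either genotype. Vehicle peaks were rare at ICI-only sites in general, at 2.73% (mutant) and 1.47% (wild type) of them. The other runs of 9, chr1:114560088-117040103 and chr3:70305289-75500536, spanned 2480 and 5195 kb of sparse binding. The longest tamoxifen-only run had 6 sites in chr18:3337565-3667624, where each wild-type ligand list had 1 peak. The longest shared run had 22 sites in 105 kb, at chr8:122494376-122599727.

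By chromosome, the classes were placed alike except on X. ICI-only sites made up between 71.3% (68.6 to 73.8, chromosome 5) and 76.7% (73.7 to 79.5, chromosome 12) of ligand-specific sites on the autosomes, and the intervals of all autosomes but chromosome 12 include the 73.4% of the whole. On X they made up 65.5% (60.95 to 69.9), with 300 ICI-only and 158 tamoxifen-only sites. Chromosome X held 158 of the 5267 tamoxifen-only sites (2.56% to 3.50%), 2.06% of ICI-only sites (1.84 to 2.30) and 2.00% of shared sites (1.85 to 2.16). The wild type had the opposite order of the specific classes. There X held 2.62% of ICI-only (2.26 to 3.01), 2.04% of tamoxifen-only (1.84 to 2.25) and 1.78% of shared sites (1.60 to 1.98). In each genotype X thus held a larger share of the smaller specific class. The difference between genotypes was not tested.

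Windows of 100 kb, laid from the start of each chromosome, were used to look for regions that favour one ligand. Of the 14505 windows with a mutant ligand peak, 83.3% held peaks of both ligands and 80.8% held a shared site. ICI had more peaks in 7343 windows, tamoxifen in 1956, and in 5206 the numbers were equal. The numbers differed by at most 1 peak in 79.1% of windows. Windows without tamoxifen peaks held at most 5 ICI peaks (5 windows), and windows without ICI peaks at most 4 tamoxifen peaks (1 window). Every window with more than 5 ICI peaks thus held a tamoxifen peak, and every window with more than 4 tamoxifen peaks an ICI peak.

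**Figure D3:**
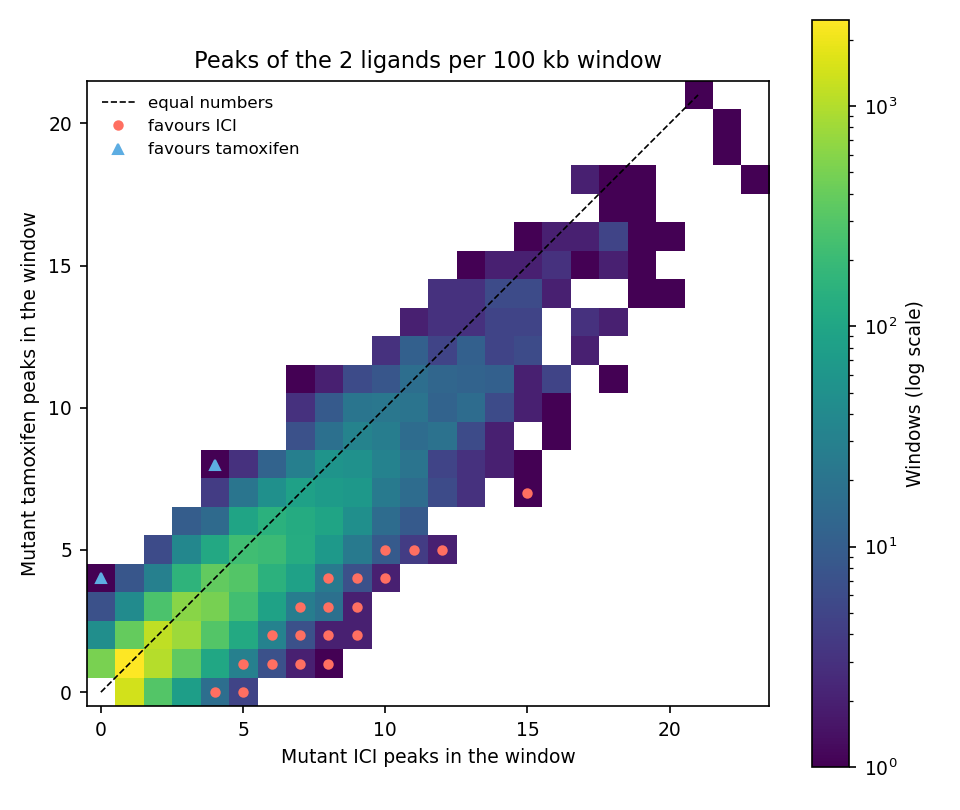
Number of 100 kb windows (colour, log scale) by their mutant ICI peaks (x axis) and mutant tamoxifen peaks (y axis); dots and triangles mark the combinations that favour ICI or tamoxifen by at least 4 peaks and 2 times. The windows lie along and slightly below the line of equal numbers, with 202 windows beyond the limit for ICI and 2 beyond that for tamoxifen.

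A window was said to favour a ligand when it held at least 4 more peaks of it and at least 2 times as many. By this rule 202 windows favoured ICI, 1.39% of windows, and 2 favoured tamoxifen, 0.0138%. The wild type had 16 (0.111%) and 496 (3.43%) of its 14447 windows. The split depended on the list lengths. With peak numbers scaled to lists of equal length, 28 mutant windows favoured ICI (0.193%) and 19 tamoxifen (0.131%). The scaled counts of the wild type were 62 (0.429%) and 56 (0.388%).

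Over the 202 windows as a whole, the unscaled wild-type lists held more tamoxifen than ICI peaks, as over all windows. The 202 windows lay on all 19 autosomes and X and held 1389 ICI and 485 tamoxifen peaks in the mutant. The wild-type lists held 613 ICI and 818 tamoxifen peaks, a ratio of 0.749, close to the 0.714 over all windows with a mutant ligand peak. Among windows with a wild-type ligand peak, which were 199 of the 202 and 12939 of all, wild-type ICI peaks were the more numerous in 37 of the 199 (18.6%, against 16.2% of all). Wild-type tamoxifen peaks were the more numerous in 122 (61.3%, against 56.2%). In the wild type 2 of the 202 favoured ICI, against 15 of all 14505 windows with a mutant ligand peak. Those that favoured tamoxifen were 16 (7.92%), against 494 (3.41%). Both shares were thus above those over all windows. A window needs at least 4 peaks of one ligand to pass, and the 202 windows held more wild-type peaks per window. Their 613 ICI and 818 tamoxifen peaks compare with 25615 and 35874 in all 14505. Whether this density accounts for the higher shares was not tested. Scaling multiplied wild-type ICI numbers by 1.20 and wild-type tamoxifen numbers by 0.855, so windows with equal numbers counted for ICI. With scaled numbers, wild-type ICI was the higher in 113 of the 199 windows (56.8%), against 51.6% of all windows with a wild-type ligand peak. Among windows favoured with scaled numbers, it was the higher in 19 of the 28 that favoured ICI in the mutant (67.9%). It was also the higher in 14 of the 19 that favoured tamoxifen (73.7%), against the same 51.6%. With unscaled numbers, wild-type ICI led in 9 and wild-type tamoxifen in 14 of the 28. In the 19, they led in 8 and 7.

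The balance of the specific sites was similar at all densities of shared sites in the mutant. ICI-only sites were 73.6% (72.2 to 74.97) of ligand-specific sites in windows without a shared site, 73.2% (72.0 to 74.3) in windows with 3 to 5 and 71.3% (67.6 to 74.9) in windows with 10 or more. The intervals of these and of the windows with 1, 2 and 6 to 9 shared sites overlap. In the wild type the share fell from 30.6% (29.6 to 31.6) without a shared site to 25.4% (24.2 to 26.5) with 3 to 5 and 18.8% (16.5 to 21.3) with 6 to 9. It was 14.1% (7.51 to 23.4) in the 16 windows with 10 or more. Mutant windows without a shared site numbered 2787 and held 2914 ICI-only and 1045 tamoxifen-only sites.

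**Figure D4:**
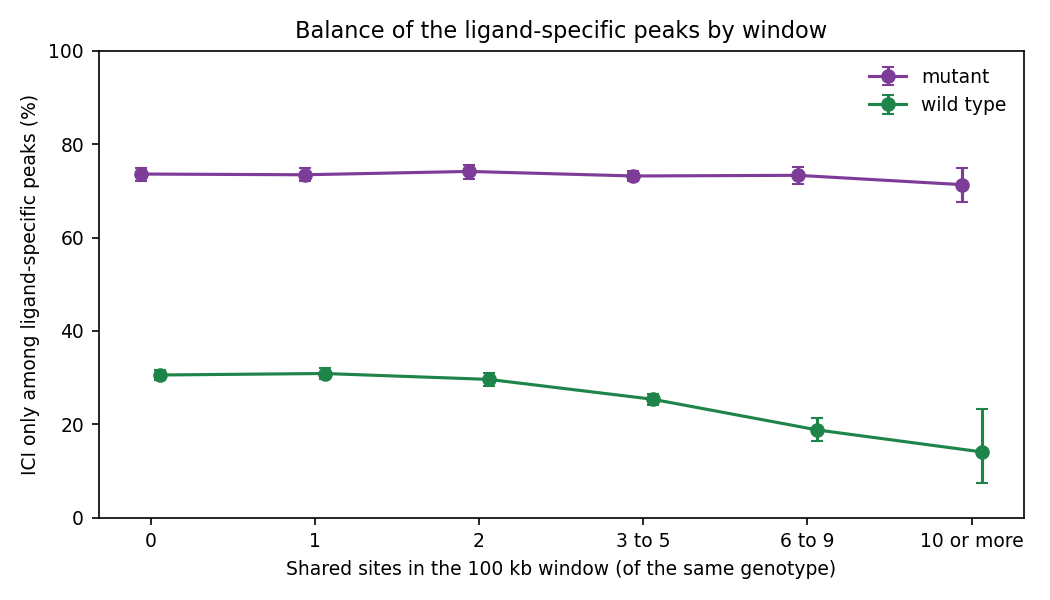
Share (%) of ICI-only among ligand-specific peaks by the number of shared sites in the 100 kb window, for each genotype with its own shared sites; points are shares and bars 95% exact binomial intervals. The mutant stays between 71.3% and 74.2%, and the wild type goes from 30.6% without a shared site to 14.1% with 10 or more.

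The 10 windows with the largest excess of ICI held 6 to 8 more ICI than tamoxifen peaks. The excess of 8 was in chr4:148200001-148300000, which had 15 ICI and 7 tamoxifen peaks in the mutant. Its lead over the other windows was lost with numbers scaled to equal list length (5.59, against 6.06 for chr16:4400001-4500000) and with peaks merged over 1 kb (7, against 8 for chr7:106500001-106600000). Each wild-type ligand list had 9 peaks there and each vehicle list 1. All 7 tamoxifen peaks were shared, and 6 of the 8 ICI-only sites were in neither wild-type ligand list, against 57.9% of all ICI-only sites. The ICI-only sites stood between shared ones, except chr4:148296284-148296483 and chr4:148297567-148297766, which followed the last shared site of the window. For example, the ICI-only peak chr4:148242181-148242380, present in both wild-type ligand lists, lay less than 2 kb before the shared peak chr4:148243833-148244032.

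The most one-sided of these windows was chr16:4400001-4500000, with 8 ICI peaks and 1 tamoxifen peak in the mutant. The wild type had 2 ICI and 6 tamoxifen peaks there, the reverse order, and neither vehicle list had a peak. Its shared site was chr16:4419503-4419702, which was also in both wild-type ligand lists. Of its 7 ICI-only sites, 3 were in the wild-type tamoxifen list, among them chr16:4406943-4407142 and chr16:4418150-4418349, and 1 was in the wild-type ICI list, chr16:4446576-4446775. Over all ICI-only sites, these lists held 35.2% and 17.96%.

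In chr18:60700001-60800000, which had 15 ICI and 8 tamoxifen peaks in the mutant, the wild type had 5 and 12, the widest reversal among the named windows. Of its 7 ICI-only sites, 5 were wild-type tamoxifen sites and 0 were wild-type ICI sites, against 35.2% and 17.96% of all ICI-only sites. A pair of windows on chromosome 7 also had the order reversed in the wild type. chr7:106500001-106600000 had 16 ICI and 9 tamoxifen peaks in the mutant against 4 and 6 in the wild type, and chr7:108000001-108100000 had 18 and 11 against 7 and 13. In the first, 7 of 8 ICI-only sites were in neither wild-type ligand list, against 57.9% of all ICI-only sites. In the second, 4 of 9 were wild-type tamoxifen sites, near the 35.2% of all ICI-only sites.

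Wild-type ICI kept the lead in 2 of the 10 windows. chr3:129200001-129300000 had 9 ICI and 2 tamoxifen peaks in the mutant and 7 and 4 in the wild type. Of its 7 ICI-only sites, 4 were wild-type ICI sites, against 17.96% of all ICI-only sites. chr12:21100001-21200000 had 12 and 5 in the mutant and 8 and 5 in the wild type. On the same chromosome, chr12:109400001-109500000 had 9 and 2 in the mutant and 3 and 4 in the wild type. chr6:72600001-72700000 had 12 and 5, and 2 and 5 in the wild type, with 2 mutant vehicle peaks. chr6:146900001-147000000 had 7 and 1 in the mutant, and 4 with each ligand in the wild type. It was 1 of 19 windows tied at an excess of 6 peaks.

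Tamoxifen led by 4 peaks at most. In chr18:3600001-3700000 the mutant had 4 tamoxifen peaks and 0 ICI peaks, and the wild type 1 tamoxifen peak. In chr1:75400001-75500000 it had 8 tamoxifen, 4 ICI and 3 vehicle peaks, and the wild type 3 tamoxifen and 4 ICI peaks. These are the 2 windows that favoured tamoxifen. The 4 tamoxifen-only sites of the latter included chr1:75443470-75443669, which held a mutant vehicle peak. Of the 4, 3 were in neither wild-type ligand list, near the 67.9% of all tamoxifen-only sites. chr11:113500001-113600000 had 11 tamoxifen and 7 ICI peaks, under 2 times as many, and the wild type had 6 and 5. The other 7 named windows had 3 tamoxifen peaks and 0 ICI peaks. They are those of the 43 windows tied at an excess of 3 that had no ICI peak, because ties went to the windows with fewer peaks of the other ligand, so their 0 is set by the choice. The wild type had 0 to 3 tamoxifen and 0 to 2 ICI peaks in these. In 1 of the 10 windows wild-type ICI led, in 4 the wild-type numbers were equal and in 5 wild-type tamoxifen led.

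**Figure D5:**
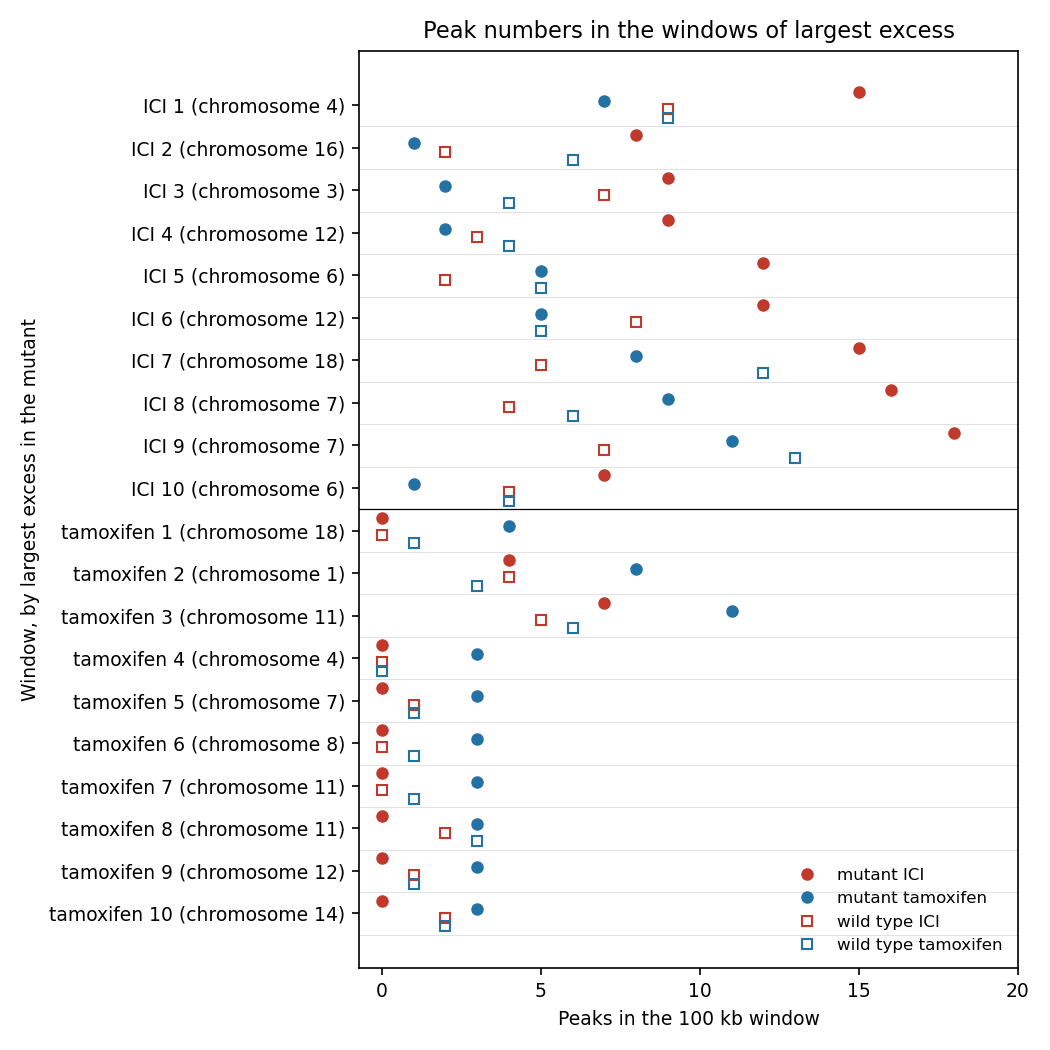
Peaks per 100 kb window in the mutant (filled circles) and the wild type (open squares) with ICI (red) and tamoxifen (blue), for the 10 windows of largest ICI excess and the 10 of largest tamoxifen excess in the mutant. In the ICI windows the mutant ICI count leads by 6 to 8 peaks, and wild-type tamoxifen leads in 6 of the 10, against 56.2% of all windows with a wild-type ligand peak; the tamoxifen windows differ by 3 or 4 peaks.

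The 3 windows with the most shared sites were chosen for that number, and they held 0 to 4 ICI-only and 0 or 1 tamoxifen-only sites. chr8:122500001-122600000 had 21 peaks with each ligand, all shared, and 17 wild-type tamoxifen and 9 wild-type ICI peaks. chr4:149200001-149300000 had 19 shared sites with 3 ICI-only and 1 tamoxifen-only site. chr1:74000001-74100000 had 18 shared sites with 4 ICI-only sites and 1 tamoxifen-only site. None of these ICI-only sites was in a wild-type ligand list, as for 57.9% of all ICI-only sites. The tamoxifen-only site of the chromosome 1 window was in both wild-type ligand lists, and that of the chromosome 4 window was in neither.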

How the data were processed

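Peak positions are the only values used. Per the labels, each deposited list holds chromosome, start, end and a name for 1 library, and all peaks in the 6 lists were 200 bp wide with no score. Bowtie2 2.1.0, SAMtools, Picard, HOMER 4.10.3, bedtools 2.24.0 and build mm9 are named per the submitters' processing notes, without roles. Peak threshold and use of input are not stated there. Overlaps, midpoint distances and windows were computed with Python 3.11.15, numpy 2.4.6 and scipy 1.17.1. A check with bedtools 2.31.1 found 0 differences in 30 pairwise overlap counts, and the functions were tested on simulated data. A peak was put in the window of its midpoint. Scaled window numbers were divided by list length and multiplied by the mean of both lengths. Members, rules and windows were chosen with earlier results of these data known. Named windows were the 10 with the largest excess of each ligand (ties to fewer peaks of the other ligand, then position) and the 3 with most shared sites, besides the longest runs and farthest sites. Comparisons by gene and by estrogen response element needed an mm9 annotation or genome and were not run. Alternatives were another overlap, merged peaks, main chromosomes only, stricter class members and other window rules.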

Additional observations from a re-analysis of the deposited data

Results flagged for a closer look

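ICI led in the mutant and tamoxifen in the wild type, with 1 library for each value and no test of the difference. For all peaks, ICI to tamoxifen stood at a ratio of 1.25 (mutant) and 0.709 (wild type). For ICI-only to tamoxifen-only peaks the ratios were 2.77 (mutant) and 0.405 (wild type).

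In 7 of the 20 windows named for their excess, the ligand with more peaks in the mutant had fewer in the wild type, also untested. Of these, 6 are among the 10 ICI windows, and wild-type tamoxifen led in 56.2% of all windows with a wild-type ligand peak. The excess of ICI over tamoxifen peaks was 7 for the mutant and -4 for the wild type on chr16:4400001-4500000, 7 and -1 on chr12:109400001-109500000, and 7 and -3 on chr6:72600001-72700000. It was 7 and -7 on chr18:60700001-60800000, 7 and -2 on chr7:106500001-106600000, and 7 and -6 on chr7:108000001-108100000. On chr1:75400001-75500000 it was -4 for the mutant and 1 for the wild type.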

How the results depend on the processing

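No paired analysis was possible because each group was 1 library. The cause of the shifts below was not tested, except that fewer or more peaks pass by construction where a rule is stricter or looser. Peak heights were not at hand, so no stricter peak set was made, and depth is unknown.

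With an overlap of 100 bp or more, shared peaks were 67.3% of ICI and 84.5% of tamoxifen peaks, and ICI-only peaks were 72.5% of ligand-specific peaks (72.7% on autosomes). With midpoints within 500 bp they were 70.3% and 86.9%, and with peaks merged over 1 kb 69.5% and 86.3%. For members over 500 bp from the other ligand, median distances to a shared site were 15.0 kb (ICI only) and 14.7 kb (tamoxifen only), with 39.4% and 40.1% within 10 kb. Windows favouring ICI numbered 592 with an excess of 3, 18 with an excess of 6 and 28 with scaled numbers. Those favouring tamoxifen numbered 33, 0 and 19, and 1 with windows moved by 50 kb or with merged peaks.

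In the other lists, a 100 bp overlap gave shared sites 7.64% in mutant vehicle, 51.9% in wild-type ICI, 71.8% in wild-type tamoxifen and 8.16% in wild-type vehicle. It gave ICI-only sites 16.9% in wild-type ICI, and tamoxifen-only sites 7.21% in mutant vehicle, 15.7% in wild-type ICI and 2.60% in wild-type vehicle. Midpoints within 500 bp gave, in the order mutant vehicle, wild-type ICI, wild-type tamoxifen and wild-type vehicle, 9.77%, 56.1%, 74.0% and 9.11% for shared sites. They gave 3.62%, 22.3%, 38.8% and 2.04% for ICI-only sites, and 9.36%, 22.8%, 26.9% and 3.70% for tamoxifen-only sites. In both settings tamoxifen-only sites stayed above ICI-only sites in the vehicle lists and below them in wild-type tamoxifen. In wild-type ICI they were below ICI-only sites with the larger overlap, above with the wider distance, and below (17.2% and 18.05%) for members over 500 bp from the other ligand. Each summary value of the mutant lists was compared with its value in each setting. In 38 of these comparisons it stayed within its counting interval or within 1.5 times the count, and in 40 it moved beyond. The ICI excess of the named windows kept its sign in both settings tried. With scaled numbers it went from 8 to 5.59 on chr4:148200001-148300000, and from 7 to 4.46, 4.23 and 3.77 on chr18:60700001-60800000, chr7:106500001-106600000 and chr7:108000001-108100000. It went from -4 to -6.11 on chr11:113500001-113600000. With merged peaks it was 4 on chr18:60700001-60800000 and on chr7:108000001-108100000.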
